A study of Dunaliella viridis with 39 samples.

Results

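The transfer of nitrate-grown cells into fresh nitrate medium was followed in 6 of the 39 RNA libraries of the study. They were chosen by their labels alone: the 3 inoculum libraries (0 h) and the 3 libraries taken 3 h later from cultures with 5 mM KNO3. The organism was the single-celled green alga Dunaliella viridis (strain dumsii), which lives in brine. Cultures were kept under continuous cool white light of 125 µmol photons at 23.5 °C. Per the labels' protocols, the week-old inoculum was collected in mid-logarithmic phase by centrifugation at 3500 g for 6 min. Its cells were then resuspended in 450 ml of new medium. The same inoculum was also moved into 5 mM L-glutamine, 5 mM L-glutamate or medium with no added nitrogen, and all 4 media were sampled at 3, 27 and 51 h. These other groups serve below only to set the transfer to nitrate in context.

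The nitrogen source was nitrate on both sides of the comparison. In green algae nitrate enters through membrane transporters, is reduced to nitrite by nitrate reductase and to ammonium by nitrite reductase in the chloroplast, and is then built into glutamine by glutamine synthetase. Dunaliella cells have no rigid wall and balance the salt outside with internal glycerol. Pelleting, resuspension, renewal of the medium and the change in cell density came together in every transferred culture, so their parts in any difference cannot be told apart. In bulk RNA, a change in the share of cells in some state cannot be told apart from a change in RNA per cell.

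The deposited tables name the loci by number and pair none with a gene name. Single loci are therefore identified by their ID, and no function is given to them. Levels are CPM (read counts relative to library size) on libraries scaled by TMM, a factor per library estimated from the bulk of the loci, and can be compared for a locus between libraries but not between loci, because they are not divided by length.

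The 6 libraries held 4297587 to 18528770 counts, and 17569 of 18495 loci were tested after removal of those with too few reads. Nitrate 3 h replicate 2 stood apart. Its 10 most abundant loci took 18.2% of its counts, against 58.3% and 44.5% in nitrate 3 h replicates 1 and 3. The inoculum libraries had 54.2%, 46.6% and 51.8%, so they overlapped with replicates 1 and 3 and lay far above replicate 2. The difference of the 2 group means was -10.6 percentage points (exact permutation test, two-sided, p = 0.6), and 0.504 without replicate 2 (exact permutation p = 1). With 3 against 3 libraries the smallest p that this exact permutation test can give is 0.1. TMM factors were 1.79 for replicate 2 and 0.680 to 1.09 for the other 5 libraries. A set of 80 loci was at least 8-fold lower in replicate 2 than in both other nitrate 3 h libraries. They took 12.2% and 9.09% of the counts of replicates 1 and 3 and 1.13% of those of replicate 2. Counts, classes, lengths and courses of the called loci are given with and without this library.

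**Figure D1:**
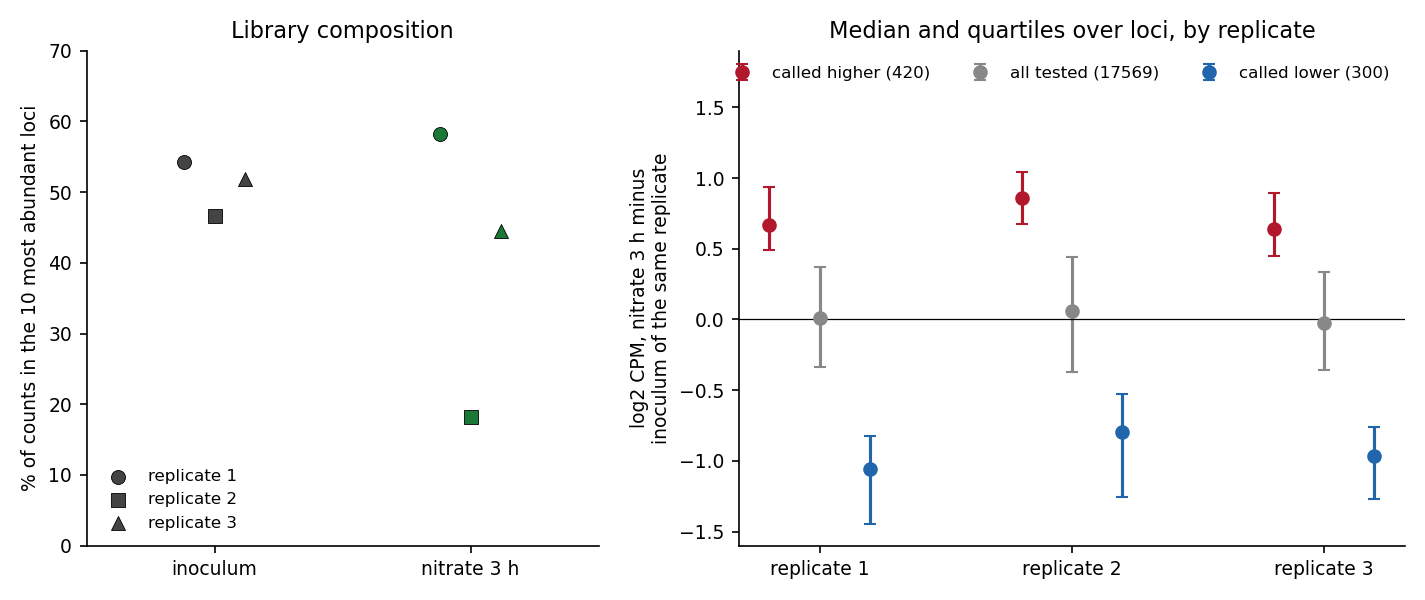
Left: share of counts (%) in the 10 most abundant loci for the 3 inoculum and 3 nitrate 3 h libraries, with a symbol per replicate; replicate 2 of nitrate 3 h is at 18.2% and the other 5 libraries are at 44.5% to 58.3%. Right: log2 CPM at 3 h in nitrate minus that of the inoculum of the same replicate, as median (points) and quartiles (bars) over the loci called higher, all tested loci and the loci called lower; the medians of the called loci have the same sign in each replicate.

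Within 3 h of transfer 420 loci rose and 300 fell relative to the inoculum, although the nitrogen source was the same. Together they were 4.10% of the loci tested (2.39% higher and 1.71% lower; edgeR's quasi-likelihood test with Benjamini-Hochberg adjustment). At least 2-fold rises numbered 66 (0.376%) and at least 4-fold rises 11 (0.0626%). At least 2-fold falls numbered 145 (0.825%) and at least 4-fold falls 24 (0.137%), so large falls outnumbered large rises. Without nitrate 3 h replicate 2 there were 47 rises (0.265%) and 103 falls (0.581%) of at least 2-fold, and 5 rises (0.0282%) and 16 falls (0.0902%) of at least 4-fold. With the 6 libraries fitted alone, 30 rises and 75 falls reached 2-fold. The median change of the risen loci was 0.73 on the log2 scale and that of the fallen loci -0.98, against 0.02 for all tested loci. A total of 407 risen and 288 fallen loci had no overlap between the 3 nitrate and the 3 inoculum libraries, where 9.92% of all tested loci had all nitrate libraries above and 7.64% all below. The called loci were chosen by the difference between these libraries, so their lack of overlap follows largely from the choice.

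**Figure D2:**
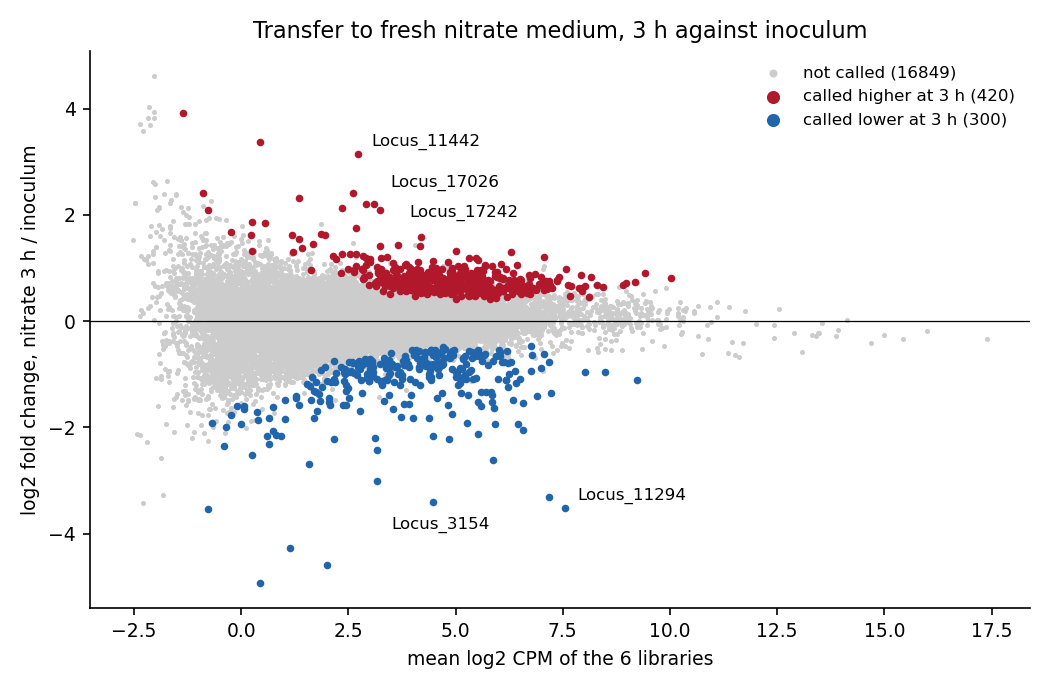
Log2 fold change of nitrate 3 h over inoculum (y axis) against the mean log2 CPM of the 6 libraries (x axis), a point per tested locus. Of the 17569 loci, 420 were called higher and 300 lower; few called loci lie above a log2 change of 2, more lie below -2, and the 5 named loci that follow are marked.

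The number of calls, and whether rises or falls were more numerous, rested on the libraries and on the pooled estimate of spread. Without nitrate 3 h replicate 2, 165 loci (0.930% of 17734 tested) were called higher and 200 (1.13%) lower. Of the 165, 161 were among the 420, and of the 200, 165 were among the 300. The order thus turned, with more falls than rises. The 3 libraries of the study that stand apart were that one, no nitrogen 51 h replicate 1 and glutamate 51 h replicate 3. Without all 3, 213 loci were called higher and 243 lower, but this setting again leaves out nitrate 3 h replicate 2. Without inoculum replicate 1 the counts were 180 and 171, and without inoculum replicate 3 they were 295 and 189. A fit of the 6 libraries alone called 45 higher and 84 lower. On another scale, log2(TPM + 1) with limma, where the median of all tested loci was 0.25, 8 loci were higher and 12 lower.

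Replicates are paired by the labels, since each inoculum started the cultures of its own replicate number. In pair 1 the risen loci had a median difference of 0.67 log2 CPM, in pair 2 of 0.86 and in pair 3 of 0.64. For the fallen loci the medians were -1.06, -0.79 and -0.97. Pair 2, which holds the library that stood apart, thus had the largest rises and the smallest falls. Over the fallen loci, that library had the lowest mean log2 CPM of the nitrate 3 h libraries, at 3.299. Inoculum replicate 2 was the lowest inoculum library, at 4.28. The smaller falls of pair 2 thus went with a lower inoculum level, not with a higher nitrate level. The loci were chosen by the difference between these 6 libraries, so their common sign in the pairs follows from the choice. With replicate as a block in the fit and without nitrate 3 h replicate 2, edgeR called 296 loci higher and 311 lower.

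Sequencing run differed between the groups, with nitrate 3 h replicates 1 and 2 and inoculum replicate 1 in run 1 and the other 3 libraries in run 2. Using the libraries of run 1 alone, edgeR called 28 rises and 81 falls. Those of run 2 gave 7 rises and 9 falls. In each run a group had a lone library, whose spread is taken from the remaining groups. With run as a covariate over all libraries, 526 loci were called higher and 385 lower.

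Calls were concentrated among loci with many reads. Among the 629 tested loci with a mean of 100 CPM or more over all libraries, 37 (5.88%) rose and 10 (1.59%) fell. Between 10 and 100 CPM, 313 of 5874 (5.33%) rose and 189 (3.22%) fell. Between 1 and 10 CPM, 66 of 9213 (0.716%) rose and 93 (1.01%) fell, and under 1 CPM 4 of 1853 rose and 8 fell. Without nitrate 3 h replicate 2 the class of 100 CPM or more had 13 rises and 10 falls, that of 10 to 100 CPM 125 rises and 157 falls, and that of 1 to 10 CPM 26 rises and 31 falls. The excess of rises between 10 and 100 CPM was thus lost without that library. The median standard error of the log2 fold change was 0.19 in each of the upper classes, 0.33 between 1 and 10 CPM and 0.64 under 1 CPM, so a change of a given size was harder to detect in the lower classes. The 95% interval was narrow enough to stay inside 2-fold either way for 59.1% of tested loci.

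The risen loci were, by the median of the whole set, also long. A length relative to the median tested locus was computed from the ratio of deposited counts to deposited TPM, an abundance corrected for length, and it was available for all 17569 loci. The median was 1.65 for the risen loci (quartiles 1.24 and 2.28) and 1.28 for the fallen loci (0.869 and 1.76), where that of all tested loci is 1 by construction (quartiles 0.572 and 1.54). Among loci changed at least 2-fold, the medians were 1.24 for the 66 risen and 1.01 for the 145 fallen. The larger rises were thus less long than the risen loci as a whole. Longer loci gather more reads. Between 10 and 100 CPM alone, the medians were 1.77 for 313 risen loci, 1.44 for 189 fallen loci and 1.47 for all 5874. In that class the fallen loci were thus close to the class median and the risen loci above it. Without nitrate 3 h replicate 2 the medians in the class were 1.77 for 125 risen loci and 1.47 for 157 fallen loci, against 1.47 for all. With all libraries, the called loci of the class also had a higher median read level. It was 30.7 CPM for the 313 risen loci, 25.6 CPM for the 189 fallen loci and 20.4 CPM for all. The part of read level in the length difference was not tested.

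The loci with the largest changes, at a mean of at least 10 CPM and with no overlap between groups, showed 2 kinds of course. Locus_17026 stood at 5.11, 4.48 and 2.83 CPM in inoculum replicates 1, 2 and 3, and at 14.6, 25.2 and 14.4 CPM in nitrate at 3 h. All 3 transferred cultures were above every inoculum, which the rule for naming requires, and replicate 2 was the highest. The change was 4.63-fold (log2 change 2.21 with SE 0.27, adjusted p = 7.95e-07 by edgeR), and 3.69-fold without nitrate 3 h replicate 2 (edgeR adjusted p = 3.32e-05). The rise was brief. At 27 h the nitrate cultures were at 1.52, 0.568 and 1.77 CPM, all below every inoculum library (log2 change against the inoculum -1.51 with SE 0.35, adjusted p = 0.00624 by edgeR). At 51 h they were at 2.31, 1.903 and 1.70 CPM, a difference from the inoculum that did not pass (edgeR adjusted p = 0.116).

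Locus_17242, which was among the largest rises once nitrate 3 h replicate 2 was left out, behaved alike. It was at 5.25, 3.63 and 4.73 CPM in the inoculum and at 16.5, 24.99 and 16.7 CPM at 3 h. The log2 fold change was 2.08 (SE 0.23, adjusted p = 1.14e-07 by edgeR) with all libraries and 1.85 (SE 0.24, adjusted p = 5.46e-06 by edgeR) without replicate 2. By 27 h it was back to 3.49, 1.70 and 3.18 CPM, and at 51 h it was at 1.68, 1.79 and 2.81 CPM. The 51 h level was below the inoculum (log2 change -1.08 with SE 0.28, adjusted p = 0.0298 by edgeR).

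Locus_11442 had the largest rise among loci of that read level. It went from 2.23, 1.07 and 3.38 CPM in the inoculum, with 17, 5 and 55 counts, to 29.7, 23.9 and 11.3 CPM at 3 h. The nitrate libraries differed among themselves, with replicate 3 lowest. Each lay above all inoculum libraries, which the rule for naming requires. The change was 8.82-fold (log2 change 3.14 with SE 0.49, adjusted p = 6.22e-05 by edgeR), and 8.44-fold without nitrate 3 h replicate 2 (edgeR adjusted p = 4.03e-04). It kept the direction within run 2 but did not pass there (log2 fold change 2.13, edgeR adjusted p = 0.18). At 27 h it was at 4.25, 2.08 and 1.504 CPM and overlapped with the inoculum.

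**Figure D3:**
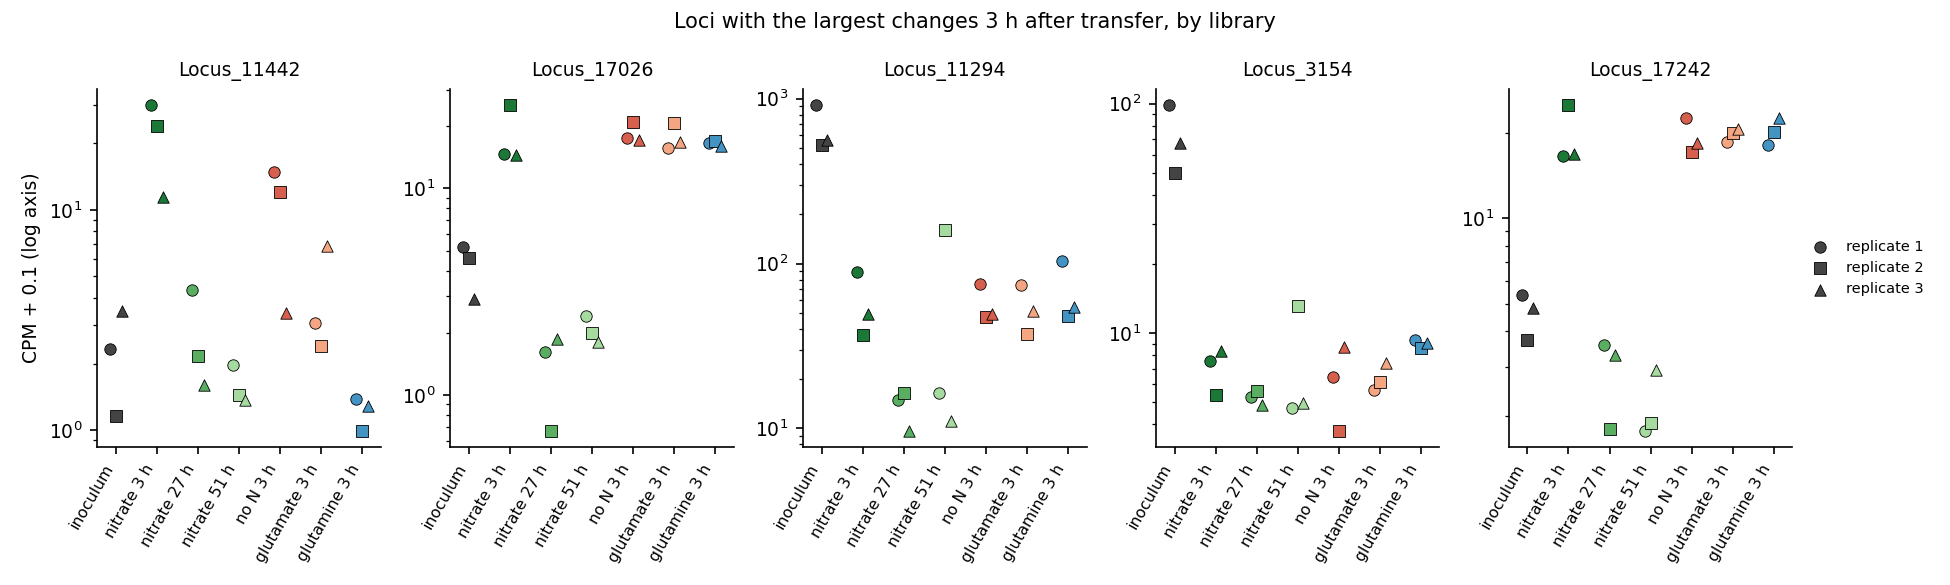
CPM plus 0.1 on a log axis for the 5 loci named for the transfer, a point per library and a symbol per replicate, in the inoculum, in nitrate at 3, 27 and 51 h, and in the other 3 media at 3 h. Locus_17026 and Locus_17242 are high in all 4 media at 3 h and low in nitrate at 27 and 51 h, Locus_11442 is high in nitrate at 3 h and low in glutamine, and Locus_11294 and Locus_3154 are high in the inoculum and low in nearly every later library.

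The 2 loci named for their falls at 3 h were of the other kind, and their falls lasted. Locus_11294 was at 912, 521 and 562 CPM in the inoculum and at 88.8, 37.01 and 49.6 CPM after 3 h in nitrate. No nitrate library came near an inoculum library. The fall was 11.4-fold (log2 change -3.51 with SE 0.55, adjusted p = 6.94e-05 by edgeR), and 9.497-fold without nitrate 3 h replicate 2 (edgeR adjusted p = 0.00196). Within run 2 the log2 fold change was -3.45 and did not pass (edgeR adjusted p = 0.289). It fell further to 14.9, 16.3 and 9.55 CPM at 27 h (log2 change against the inoculum -5.64 with SE 0.62, adjusted p = 5.67e-08 by edgeR). At 51 h replicates 1 and 3 were still at 16.4 and 11.1 CPM, while replicate 2 was at 161 CPM.

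Locus_3154 followed the same course at a lower level of reads. It was at 98.3, 49.7 and 67.5 CPM in the inoculum and at 7.499, 5.28 and 8.24 CPM at 3 h. The groups were far apart and the 3 transferred libraries lay close together. Its log2 fold change was -3.40 (SE 0.29, adjusted p = 6.03e-10 by edgeR), and -3.18 (SE 0.34, adjusted p = 1.03e-07 by edgeR) without nitrate 3 h replicate 2. It stayed at 5.16, 5.49 and 4.78 CPM at 27 h and at 4.61, 13.0 and 4.85 CPM at 51 h. Replicate 2 was again the highest nitrate library at 51 h.

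The called loci as a group followed this division only in part through the nitrate culture. Both sets moved back toward the inoculum by 51 h, the risen loci further. Locus_134 and Locus_16559, called at 3 h and described below, followed neither course. Because they were chosen by the difference at 3 h, the inoculum and 3 h levels are drawn apart by the choice, and the later comparisons share the inoculum libraries; the levels are therefore given side by side without a test. The risen loci had a mean of 4.43 ± 0.04 log2 CPM in the inoculum (SD, n = 3) and 5.23 ± 0.13 at 3 h. They were at 4.81 ± 0.05 at 27 h and 4.62 ± 0.09 at 51 h. The lowest library at 51 h, at 4.56, was still above the highest inoculum library, at 4.46. Their median log2 fold change against the inoculum was 0.73 at 3 h, 0.37 at 27 h and 0.20 at 51 h, while that of all tested loci was 0.02, -0.01 and -0.01.

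The fallen loci had a mean of 4.45 ± 0.15 log2 CPM in the inoculum and 3.34 ± 0.05 at 3 h (SD, n = 3). They were at 3.47 ± 0.04 at 27 h, and at 3.85 ± 0.11 at 51 h. The highest library at 51 h, at 3.96, was below the lowest inoculum library, at 4.28. Their median log2 fold change against the inoculum was -0.98 at 3 h, -0.79 at 27 h and -0.56 at 51 h. Those that fell at least 2-fold had medians of -1.39, -1.35 and -0.96, while those that rose at least 2-fold had 1.25, 0.39 and 0.17. At 27 h the median of the larger falls thus stood almost where it had been at 3 h. That of the larger rises had lost most of its log2 change. The quartiles of the larger falls widened from -1.80 and -1.12 at 3 h to -2.11 and -0.72 at 27 h. Some of these loci therefore fell further while others moved back. Among the loci called without nitrate 3 h replicate 2, the 165 risen had medians of 0.82, 0.41 and 0.20 at 3, 27 and 51 h, and the 200 fallen had -1.02, -0.75 and -0.46.

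**Figure D4:**
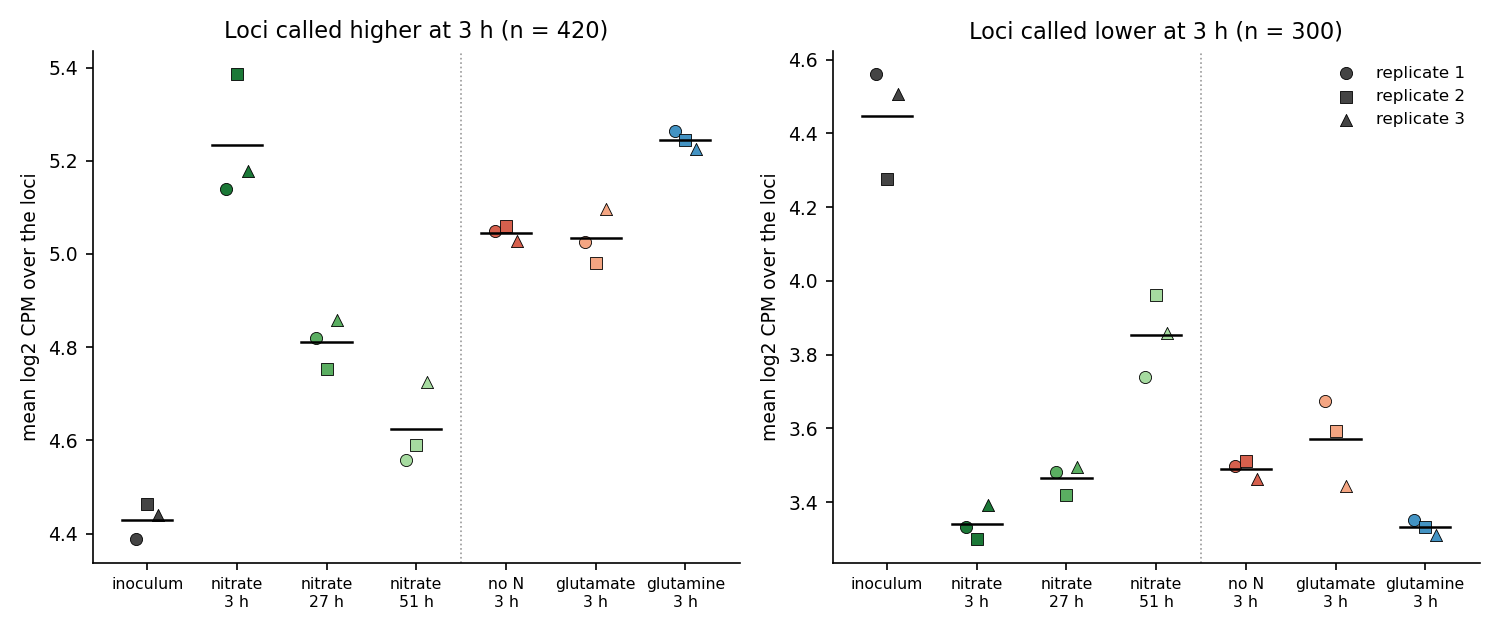
Mean log2 CPM over the 420 loci called higher (left) and the 300 called lower (right) at 3 h in nitrate, a point per library with a symbol per replicate and a line at the group mean. The risen loci are at 4.43 in the inoculum, 5.23 at 3 h and 4.62 at 51 h in nitrate, and between 5.03 and 5.25 in the other media at 3 h; the fallen loci are at 4.45, 3.34 and 3.85, and between 3.33 and 3.57 in the other media.

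At 27 h 1013 loci were called (5.77% of those tested; 503 higher and 510 lower), and at 51 h 299 were called (1.70%; 114 higher and 185 lower). These counts share the inoculum libraries with the transfer, and no test of their difference was made. The count at 51 h was below that at 3 h, but this order turned in other settings. With the compared libraries fitted alone, 212 loci were called at 51 h against 45 higher and 84 lower at 3 h. Changes of at least 4-fold were also more numerous at 51 h, with 16 rises and 32 falls. Without inoculum replicate 1, 457 loci of any size of change were called at 27 h and 152 at 51 h. Without inoculum replicate 2 the count at 27 h was 654, and without nitrate 27 h replicate 1 or 3 it was 515 or 550. Without nitrate 51 h replicate 1 the count at 51 h was 184.

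Of the 6 loci named for 27 or 51 h, Locus_11294 was also named for 3 h. Locus_568 was at 2.49, 3.63 and 3.26 CPM in the inoculum and at 2.53, 7.17 and 6.48 CPM at 3 h, where the groups overlapped and the difference did not pass (edgeR adjusted p = 0.202). At 27 h it reached 70.2, 49.4 and 64.2 CPM (log2 change 4.30 with SE 0.34, adjusted p = 2.90e-11 by edgeR), and at 51 h it was at 24.7, 24.4 and 26.6 CPM. Locus_134 rose in steps, from 2.23, 4.05 and 4.18 CPM to 15.1, 12.5 and 7.97 CPM at 3 h (log2 change 1.76 with SE 0.31, adjusted p = 4.11e-04 by edgeR). It stood at 31.8, 33.9 and 38.3 CPM at 27 h (log2 change 3.296 with SE 0.31, adjusted p = 2.90e-09 by edgeR). Both were therefore highest at 27 h.

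Locus_16559 went first down and then up. It was at 13.0, 7.25 and 8.79 CPM in the inoculum, 3.49, 3.95 and 1.76 CPM at 3 h and 0.455, 0.379 and 0.265 CPM at 27 h, and then at 98.8, 229 and 227 CPM at 51 h. Each step was outside the range of the one before. The log2 fold change against the inoculum was -1.58 at 3 h (SE 0.35, edgeR adjusted p = 0.00447) and 4.25 at 51 h (SE 0.33, edgeR adjusted p = 6.51e-11).

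Locus_16811, named for its fall at 51 h, had fallen already at 3 h, where its mean over the 6 libraries was just under the 10 CPM needed to be named. It was at 28.8, 10.9 and 17.8 CPM in the inoculum and at 0.634, 0.927 and 0.675 CPM at 3 h, from 6, 30 and 5 counts. Its log2 fold change was -4.58 (SE 0.47, adjusted p = 4.49e-08 by edgeR). At 51 h it had 0, 19 and 8 counts.

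Locus_7345 moved with Locus_11294, at 643, 383 and 392 CPM in the inoculum and 10.8, 10.98 and 7.17 CPM at 27 h (log2 change -5.64 with SE 0.57, adjusted p = 9.31e-09 by edgeR). The ratio of the CPM of Locus_11294 to that of Locus_7345 ranged from 0.938 to 2.95 over the 39 libraries, with a median of 1.45. Whether the loci share reads cannot be judged from the tables. At 51 h replicate 2 was at 118 CPM for Locus_7345, against 16.2 and 7.65 CPM in replicates 1 and 3.

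**Figure D5:**
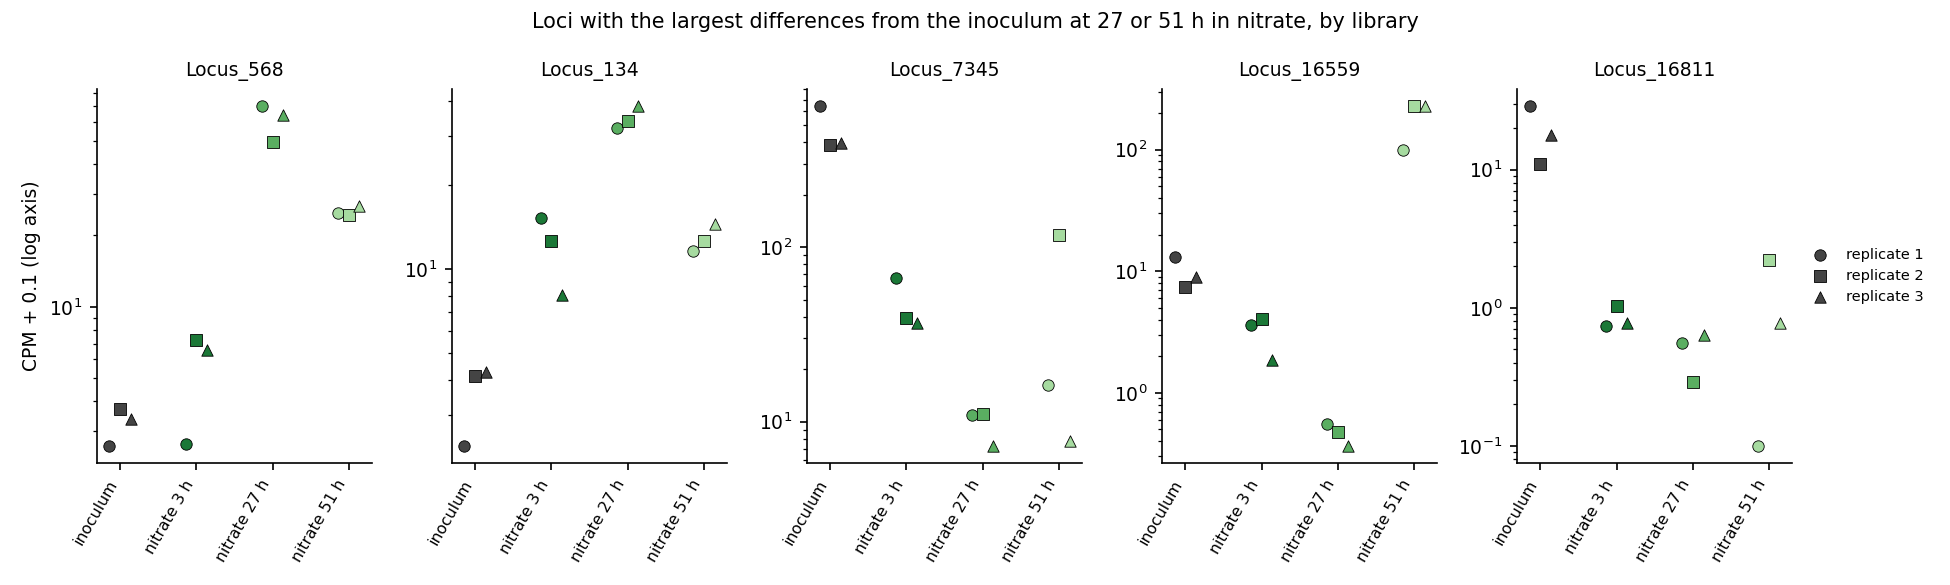
CPM plus 0.1 on a log axis for 5 loci named for nitrate 27 h or 51 h against the inoculum, a point per library and a symbol per replicate. Locus_568 and Locus_134 peak at 27 h, Locus_16559 falls to 27 h and is highest at 51 h, and Locus_7345 and Locus_16811 stay low after transfer, apart from replicate 2 at 51 h for Locus_7345.

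Whether the nitrogen source mattered to the transfer was tested by setting the media directly against each other at 3 h, where the inoculum cancels. No nitrogen against nitrate gave 0 calls (0%) by edgeR, with 622 loci (3.54%) at an unadjusted p under 0.05 and 1 call by DESeq2. Glutamate against nitrate also gave 0 calls (0%), with 511 (2.91%) at an unadjusted p under 0.05 and 1 call by DESeq2. As fractions both shares were below 0.05, the share that such a threshold passes where no locus differs. The 95% interval of the difference lay within 2-fold for 68.2% and 70.2% of loci, so smaller differences, and larger ones in the remaining loci, could have been missed. Glutamine differed from nitrate in 42 loci (0.239%), 41 of them lower in glutamine. There 653 loci (3.72%) were at an unadjusted p under 0.05, a fraction that was also below 0.05. A share below 0.05 thus does not show that no locus differs.

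Locus_17026, Locus_17242, Locus_11294 and Locus_3154 were at similar levels in all media at 3 h. Locus_17026 was at 18.5 ± 2.08 CPM without nitrogen, 17.6 ± 2.61 CPM in glutamate and 16.4 ± 0.387 CPM in glutamine, beside 18.1 ± 6.18 CPM in nitrate (SD, n = 3). The direct log2 differences of Locus_17026 from nitrate were 0.00, -0.06 and -0.16 (SE 0.23 each). Those of Locus_11294 were -0.02, -0.10 and 0.24 (SE 0.51, 0.51 and 0.50), and none passed. In nitrate this level was lost by 27 h, but Locus_17026 was still at 11.996 ± 4.66 CPM without nitrogen and 10.8 ± 1.77 CPM in glutamate at 27 h, beside 1.28 ± 0.633 CPM in nitrate (SD, n = 3). At 27 h Locus_17242 stood at 9.40 ± 3.44 CPM without nitrogen and 8.42 ± 1.48 CPM in glutamate, beside 2.79 ± 0.954 CPM in nitrate. In glutamine both loci were low at 27 h, as in nitrate. Locus_17026 was at 1.55 ± 0.522 CPM there and Locus_17242 at 3.74 ± 0.518 CPM. These later differences between media were not tested. Locus_11442 was the exception among the 5 at 3 h. It was at 1.29, 0.894 and 1.19 CPM in glutamine, below every nitrate library (log2 difference from nitrate -4.23, SE 0.51, edgeR adjusted p = 6.87e-07). In glutamate it was at 2.95, 2.32 and 6.72 CPM, a log2 difference from nitrate of -2.38 (SE 0.44) that did not pass (edgeR adjusted p = 0.0775). Without nitrogen it was at 14.7, 11.9 and 3.31 CPM and overlapped with nitrate.

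With all libraries in the fit, glutamine was closest to nitrate over the called loci, and no nitrogen and glutamate showed smaller changes. Against the inoculum, which all 4 transfers share, the median change of the 420 risen loci on the log2 scale was 0.73 in nitrate, 0.53 without nitrogen, 0.54 in glutamate and 0.81 in glutamine. For the 300 fallen loci it was -0.98, -0.82, -0.75 and -1.04. The loci were chosen in nitrate, which by itself would make the values in nitrate the largest of like media. The small differences between nitrate and glutamine were not tested over these sets. By level, the risen loci were at 5.05 ± 0.02 log2 CPM without nitrogen, 5.03 ± 0.06 in glutamate and 5.25 ± 0.02 in glutamine, beside 5.23 ± 0.13 in nitrate (SD, n = 3). Every library without nitrogen (5.03 to 5.06) or in glutamate (4.98 to 5.10) was below every nitrate library (5.14 to 5.39), while glutamine (5.23 to 5.26) overlapped. For the fallen loci the libraries without nitrogen (3.46 to 3.51) and in glutamate (3.44 to 3.67) were above all of nitrate (3.299 to 3.39), and glutamine (3.31 to 3.35) overlapped. Set directly against nitrate, the risen loci had a median log2 difference of -0.20 without nitrogen, -0.19 in glutamate and 0.05 in glutamine, and the fallen loci 0.10, 0.18 and -0.05. The 165 and 200 loci called without nitrate 3 h replicate 2 had medians of -0.14, -0.14 and 0.13, and of 0.12, 0.19 and -0.02. For the risen loci glutamine was then about as far from nitrate as the other media, in the opposite direction. For the fallen loci it was still the closest. The choice of loci in nitrate bears on these differences, and its part was not tested.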

How the data were processed

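RNA-seq counts from 39 libraries of Dunaliella viridis were used, 6 of them for the transfer. Per the labels' protocols, rRNA was depleted from total RNA, strand-specific libraries were made, and 125 bp single-end reads were sequenced in 2 runs. The authors deposited whole-number read counts and TPM for 18495 loci. FastQC, STAR, RSEM and edgeR 3.4.0 are listed, without roles, per the submitters' processing notes. For the build, annotation and strand setting the sources used here give nothing. All columns could be tied to a sample by its title, leaving 0 over.

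The count analysis used edgeR 4.0.16 (R 4.3.3). Its filterByExpr removed 926 loci holding 0.0235% of counts. All 39 libraries entered one quasi-likelihood fit with TMM factors and a mean per group, so all groups share the estimate of spread. P-values were adjusted by Benjamini-Hochberg over all tested loci, with calls at 0.05. Standard errors were derived from the fold change and F value. Log2 CPM used a prior count of 2. The repeats were separate biological replicates per the labels. Within the 2 groups no pair agreed to within sampling noise (lowest chi-square per degree of freedom 14.8).

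The members, lists and rules were chosen with earlier results of these data known. Loci were named as the 2 largest rises and 2 largest falls among called loci of at least 10 CPM without overlap between groups, for the transfer with and without nitrate 3 h replicate 2 and for nitrate 27 and 51 h against the inoculum.

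Replicate numbers pair the libraries per the labels. Deviations from the group means correlated at 0.138, 0.0769 and 0.0407 in pairs 1, 2 and 3. Between replicates of unlike number the correlations ranged from -0.147 to 0.0568, so they overlapped with those of the pairs. Alternatives were RLE factors, TMM without the 10 most abundant loci, total counts only, no filter, DESeq2 1.42.0, replicate block, run as covariate, limma 3.58.1 (log2 of TPM plus 1 or plus 0.1, with a trend), leaving out libraries, and fits within a run or of only the libraries compared. The fits were tested on simulated data.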

Additional observations from a re-analysis of the deposited data

Results flagged for a closer look

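Locus_11442 was singled out because its response to transfer differed between media. Its level at 3 h in glutamine was lower than in nitrate by a log2 difference of -4.23 (SE 0.51, edgeR adjusted p = 6.87e-07), with all 3 glutamine libraries below all 3 nitrate libraries. In the inoculum it stood at 2.23 ± 1.16 CPM (SD, n = 3), in nitrate at 3 h at 21.6 ± 9.37 CPM and in glutamine at 3 h at 1.13 ± 0.207 CPM. Its fall from inoculum to glutamine did not pass (log2 fold change -1.09, SE 0.56, edgeR adjusted p = 0.309).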

How the results depend on the processing

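Of 210 values of named loci under alternatives, 207 stayed on their side of the threshold, 3 no longer passed and 0 changed direction; DESeq2 gave no adjusted p for Locus_11442 at 3 h or Locus_16811 at 51 h. The third that did not pass, beside the 2 within run 2, was Locus_11294 at 51 h with the compared libraries alone (edgeR adjusted p = 0.0509). For the transfer, calls higher and lower were 45 and 84 with the compared libraries alone, 8 and 12 by limma on log2(TPM + 1), 7 and 8 on log2(TPM + 0.1), 28 and 81 within run 1, 7 and 9 within run 2, and 11 and 11 on total counts only. The median of all loci was then 0.25, 0.29 and 0.38 on the TPM and total-count scales, against 0.02. Without the 3 libraries that stand apart 213 were higher. Leaving out a library gave 165 to 411 higher and 171 to 348 lower. At 27 h limma called 74 and 71 loci, and leaving out a library gave 457 to 980. At 51 h DESeq2 called 458 and limma 39 and 36, with 152 to 258 when a library was left out. No nitrogen against nitrate at 3 h gave 1 call by DESeq2, with a replicate block and with run as covariate, and 0 to 3 without a library. Glutamate against nitrate gave 1 by DESeq2, 2 with a replicate block, 1 by limma on log2(TPM + 1), and 0 to 5 without a library. Glutamine against nitrate gave 20 with its libraries alone and 22 by limma on either scale, and 29 to 40 without a library. Apart from these, the replicate block moved no count by over 1.5 times; for the transfer it gave 564 higher and 405 lower. The difference in the share of the 10 most abundant loci went from -10.6 to 0.504 percentage points without nitrate 3 h replicate 2. The cause of these changes was not tested. Fits of fewer libraries also have fewer degrees of freedom, and the part of this was not tested either. Counts of loci changed at least 2-fold or 4-fold, the later named loci, and the classes, lengths and courses without nitrate 3 h replicate 2 were alternatives chosen after seeing the data: without nitrate 3 h replicate 1, 244 loci fell at least 2-fold. Depth limits the loci under 1 CPM most.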
